A study of Arabidopsis thaliana with 18 samples.

Results

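AT5G38910, a germin-like gene on chromosome 5, and AT3G60270, a cupredoxin gene on chromosome 3, were followed in Arabidopsis thaliana roots with and without a root-colonizing bacterium. They are 2 genes, each read by 1 probe set, of 22746 probe sets that are not controls. Both were chosen by their measured values in all 6 groups, so their own levels and differences are given as a description without a test. Tests are given for other genes only: family members, pathway genes and chromosomal neighbours. Neither the sequences of the probes nor those of the genes or proteins were used here.

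The 18 Affymetrix ATH1 arrays form 6 groups of 3. Colonized and untreated roots were taken from oxMYB72 (genotype 35S:FLAG-MYB72/myb72-2), from the mutant myb72-2 and from wild-type Col-0, all as 19-day-old seedlings. Colonized roots had received Pseudomonas fluorescens WCS417 at an age of 17 days and were sampled 2 days later. MYB72 is a root transcription factor, and 35S is a constitutive promoter of viral origin, which drives the FLAG-tagged factor in oxMYB72. The oxMYB72 line carries the myb72-2 mutation, so myb72-2 is its genetic background. Nothing in the labels says how many independent transgenic lines or plant batches were used, and the p-values here rest on the variation among these arrays, some of which may be technical.

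Germin-like proteins belong to the cupins, small barrel-shaped proteins that plants secrete into the cell wall as sturdy oligomers. True germins of cereals are oxalate oxidases that produce hydrogen peroxide, and some germin-like proteins of other plants have superoxide dismutase activity. Many germin-like genes are induced by microbes. AT3G60270 belongs to the phytocyanins, plant cupredoxins that hold 1 copper atom or have lost the site, and are usually secreted or anchored at the plasma membrane. Its close relatives, the uclacyanins, act in the wall. WCS417 is a beneficial rhizobacterium that primes the whole plant for defence and, in roots, calls up part of the iron deficiency response through MYB72.

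Values are log2 expression values made with RMA, a method that corrects the background, equalizes the arrays and summarizes the probes of a set. Medians of single arrays were 6.29 to 6.41, and the correlation of replicates over all probe sets was 0.991 to 0.998. Precision is limited by having 3 arrays in a group. Of 8 root markers, 1 was measured, PYK10, a beta-glucosidase of roots, and it lay between 13.4 and 13.8 on all 18 arrays. Of 8 green tissue markers 2 were measured, LHCB4.1 and LHCB4.2 of the light-harvesting antenna. Their summed level, on a linear scale, was 203 to 278 on colonized arrays and 376 to 639 on untreated arrays, with no overlap. Both genes were called lower with WCS417 in each genotype by limma. Over all probe sets 9.09% were called lower in oxMYB72, 12.9% in myb72-2 and 8.96% in Col-0. For actin, the 3′ minus the 5′ probe set, which grows as RNA degrades, averaged 1.33 in colonized and 1.19 in untreated oxMYB72, 1.33 and 1.27 in myb72-2, and 1.3 and 1.21 in Col-0 (log2). The same difference for GAPDH averaged -0.046 and -0.197 in oxMYB72, -0.083 and -0.111 in myb72-2, and -0.035 and -0.188 in Col-0. The part of green tissue and of RNA quality in the differences given here was not tested. In whole roots, fewer cells of a type and less RNA per cell cannot be told apart.

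AT5G38910 was low in untreated myb72-2 and Col-0 roots, high in both after colonization, and in between in oxMYB72 whether colonized or not. In oxMYB72 its level was 7.74, 7.72 and 6.36 on the colonized arrays, against 6.14, 6.5 and 6.71 on the untreated ones (log2). These 2 groups overlapped, because the third colonized array lay inside the untreated range. In myb72-2 the level was 9.46, 10.05 and 10.1 with WCS417, against 4.27, 5.71 and 4.71 without it. In Col-0 it was 9.52, 9.49 and 9.51 with WCS417, against 4.91, 4.6 and 4.56 without it. Every colonized array of these 2 genotypes was far above every untreated one, and all lay above every oxMYB72 array.

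The WCS417 effect on AT5G38910, as a difference of group means, was 0.83 ± 0.31 in oxMYB72 (1.77-fold), 4.97 ± 0.31 in myb72-2 (31.5-fold) and 4.82 ± 0.31 in Col-0 (28.2-fold; log2 difference ± SE from limma, n = 3 in each group). The oxMYB72 effect was thus 17.1% of the Col-0 effect on the log2 scale. It was 1.28 without oxMYB72 WCS417 replicate 3. Ranked by size among all 22746 probe sets, the effect was number 372 from the top in oxMYB72 and number 9 in both myb72-2 and Col-0.

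AT3G60270 followed the same order in myb72-2 and Col-0, but in oxMYB72 it stood clearly higher with WCS417 than without. In oxMYB72 the level was 8.98, 9.08 and 8.49 on colonized arrays, against 6.87, 6.77 and 6.95 on untreated ones (log2). In myb72-2 it was 9.33, 9.78 and 9.48 with WCS417, against 5.12, 5.74 and 4.61 without. In Col-0 it was 9.08, 9.31 and 8.98 with WCS417, against 4.65, 4.54 and 4.88 without. In each genotype all colonized arrays lay above all untreated ones.

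The WCS417 effect on AT3G60270 was 1.98 ± 0.2 in oxMYB72 (3.96-fold), 4.37 ± 0.2 in myb72-2 (20.7-fold) and 4.43 ± 0.2 in Col-0 (21.6-fold; log2 difference ± SE from limma). The oxMYB72 effect came to 44.7% of that in Col-0 on the log2 scale. By size it was number 44 of 22746 in oxMYB72, number 12 in myb72-2 and number 11 in Col-0.

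**Figure D1:**
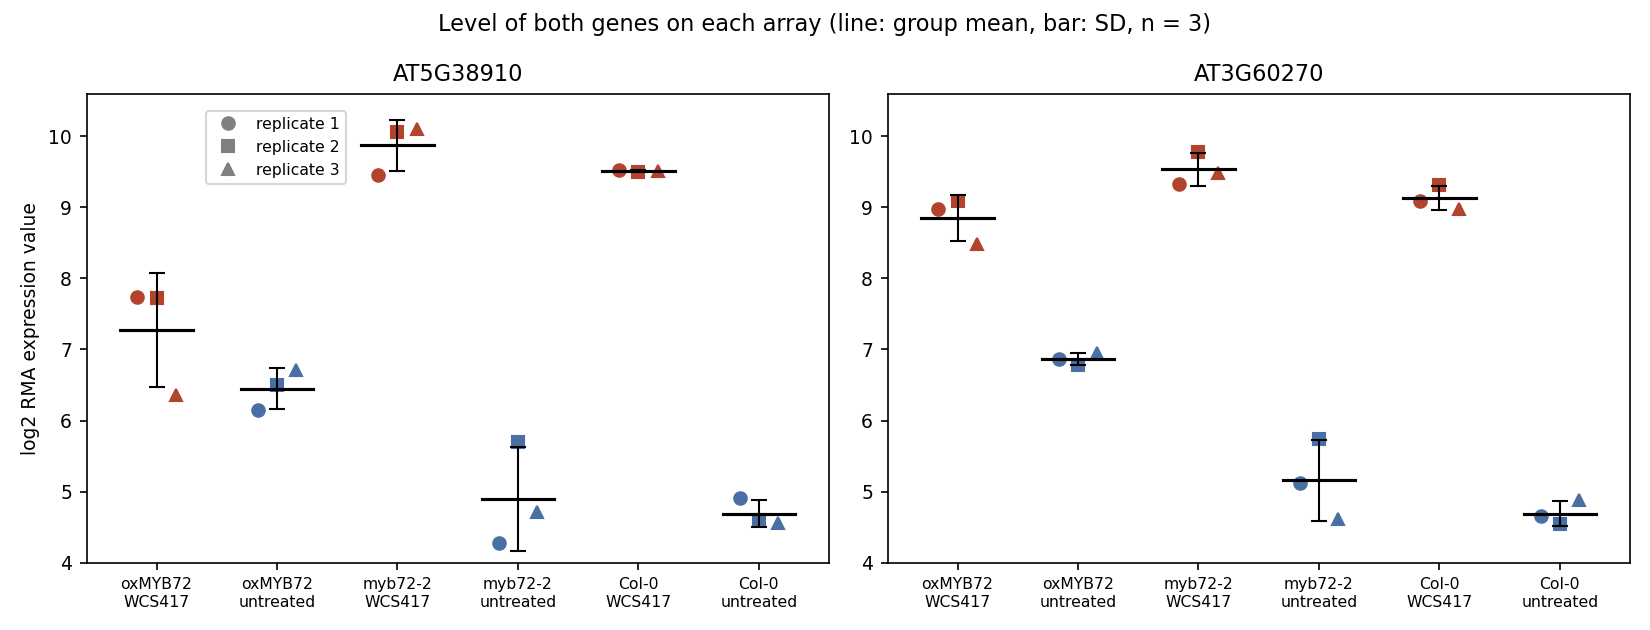
Log2 RMA values of AT5G38910 and AT3G60270 on each of the 18 arrays, with a symbol for each replicate, the group mean as a line and the SD as a bar (n = 3). Colonized oxMYB72 roots averaged 7.27 for AT5G38910, below colonized Col-0 at 9.51, whereas for AT3G60270 they averaged 8.85 against 9.13.

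The smaller effect in oxMYB72 was made up differently for each gene. Without bacteria, AT5G38910 was higher in oxMYB72 than in myb72-2 by 1.55 ± 0.31 and higher than in Col-0 by 1.76 ± 0.31 (log2 ± SE). AT3G60270 was higher by 1.71 ± 0.2 and 2.17 ± 0.2 in the same comparisons. For both genes every untreated oxMYB72 array lay above every untreated array of the other genotypes. Of the 2 green tissue markers, 2 were also called lower in untreated oxMYB72 than in untreated myb72-2 and 1 lower than in untreated Col-0. Over all probe sets 6.81% and 7.41% were called in these comparisons, in either direction. The part of green tissue in the differences of the 2 genes was not tested. With WCS417, AT5G38910 was lower in oxMYB72 than in myb72-2 by -2.6 ± 0.31 and than in Col-0 by -2.23 ± 0.31. AT3G60270 differed by -0.68 ± 0.2 from colonized myb72-2 and -0.28 ± 0.2 from colonized Col-0. The difference from Col-0 was -0.10 without colonized oxMYB72 replicate 3 and -0.18 without colonized Col-0 replicate 2. Its colonized oxMYB72 arrays overlapped those of Col-0 and lay below all those of myb72-2.

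The difference between the WCS417 effects, which combines both conditions, was -4.15 ± 0.44 for AT5G38910 between oxMYB72 and myb72-2, and -3.99 ± 0.44 between oxMYB72 and Col-0 (log2 ± SE). That was number 11 of 22746 from the most negative in each comparison. For AT3G60270 the differences were -2.39 ± 0.29 and -2.45 ± 0.29, at numbers 47 and 40. The comparisons with oxMYB72 share its arrays. The smaller effect was shared by other strongly rising probe sets. With these 2 genes, 14 rose by at least 4 in Col-0 (log2, a threshold chosen after the values were seen). In 13 of the 14 the oxMYB72 effect was under 0.5 of the Col-0 effect. Both genes are among these 13 and enter the medians that follow. The threshold was set on the Col-0 effect, which is 1 side of this comparison, and the same share over all probe sets was not computed. Their median effect was 0.81 in oxMYB72, 5.09 in myb72-2 and 5.35 in Col-0. For untreated oxMYB72 minus Col-0, AT3G60270 was number 1 and AT5G38910 number 2 of the 14, whose median was 0.52. Over all 22746 probe sets they were numbers 25 and 50. The place among the 14 depends on the threshold. AT5G38900, a neighbour of AT5G38910 that rose by 3.56 in Col-0, fell short of it and stood higher in untreated oxMYB72 by 2.14.

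The WCS417 effect in myb72-2 minus that in Col-0 was 0.16 ± 0.44 for AT5G38910 and -0.06 ± 0.29 for AT3G60270 (log2 ± SE). With single arrays left out these ranged from -0.16 (without untreated myb72-2 replicate 1) to 0.56 (without replicate 2) and from -0.33 (without replicate 3) to 0.23 (without replicate 2), so that neither has a settled direction. Untreated myb72-2 stood above untreated Col-0 by 0.21 ± 0.31 and 0.47 ± 0.2. Without myb72-2 untreated replicate 2 these values were -0.2 and 0.18. They reached 0.52 for AT5G38910 without replicate 1 and 0.74 for AT3G60270 without replicate 3. Colonized myb72-2 stood above colonized Col-0 by 0.36 ± 0.31 and 0.41 ± 0.2, the first being 0.57 without colonized myb72-2 replicate 1. For AT5G38910 the arrays of the 2 genotypes overlapped in both conditions. For AT3G60270 they overlapped without bacteria, while with WCS417 the lowest myb72-2 array, at 9.33, was just above the highest Col-0 array, at 9.31.

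Placed in order from the highest, the mean level of AT5G38910 was 9.87 ± 0.36 in colonized myb72-2, 9.51 ± 0.02 in colonized Col-0, 7.27 ± 0.8 in colonized oxMYB72, 6.45 ± 0.29 in untreated oxMYB72, 4.9 ± 0.73 in untreated myb72-2 and 4.69 ± 0.19 in untreated Col-0 (log2, SD, n = 3). Neighbours in this order overlapped except at the steps on either side of oxMYB72. For AT3G60270 the same order held, with 9.53 ± 0.23, 9.13 ± 0.17, 8.85 ± 0.32, 6.86 ± 0.09, 5.16 ± 0.57 and 4.69 ± 0.17. Here colonized oxMYB72 overlapped colonized Col-0, and untreated myb72-2 overlapped untreated Col-0. The untreated levels in myb72-2 and Col-0 lay below all array medians.

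The spread within groups was wide for both genes and ran partly in parallel. The pooled SD within groups was 0.49 for AT5G38910 and 0.3 for AT3G60270, against a median of 0.15 over all probe sets. Deviations of the 18 arrays from their group means correlated between the 2 genes at r = 0.687 and rho = 0.571, and at r = 0.445 without the 2 arrays farthest out in AT5G38910. Both genes deviated in the same direction on 11 of 18 arrays. These deviations share arrays and their normalization, and those of a group sum to 0, so the coefficients are a description.

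Untreated myb72-2 replicate 2 and colonized oxMYB72 replicate 3 were the 2 arrays farthest out in AT5G38910. The first lay above its group mean by 0.81 for AT5G38910 and by 0.58 for AT3G60270 (log2). The second deviated by -0.92 and -0.36. In all, 14 probe sets were higher by at least 4 on the log2 scale in colonized than in untreated Col-0, a threshold chosen after the values were seen, and the other 12 of them deviated on these arrays too. All 12 lay above the group mean on the first array, by a median of 0.94, and 11 of 12 lay below it on the second, by a median of -0.43. The median deviation over all probe sets was 0.0073 and -0.009 on these arrays. RMA equalizes the arrays and so holds this median near 0. It therefore cannot show whether the 12 deviated more than other variable probe sets. Actin 3′ minus 5′ stood at 1.31 on the first array, against 1.16 and 1.33 on its replicates, and at 1.41 on the second, against 1.27 and 1.32. GAPDH 3′ minus 5′ stood at -0.153 on the first, against -0.157 and -0.024 on its replicates, and at -0.113 on the second, against -0.047 and 0.022. On the second array actin was thus the highest of its group and GAPDH the lowest.

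**Figure D2:**
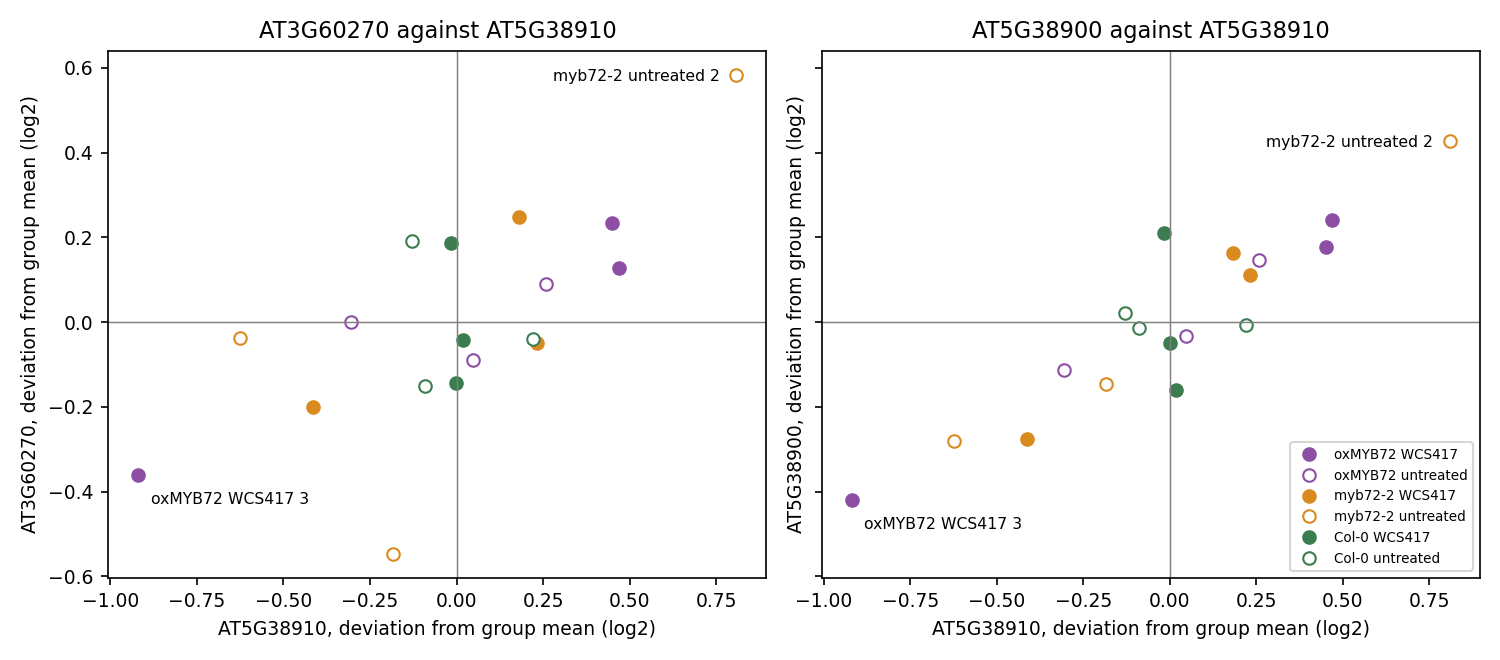
Deviation of each of the 18 arrays from its group mean (log2), with AT5G38910 on the horizontal axis and AT3G60270 (left) or the neighbouring gene AT5G38900 (right) on the vertical axis. Filled points are colonized and open points untreated arrays, and the labelled arrays deviate by -0.92 and 0.81 in AT5G38910.

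The 5 genes on either side of each gene, as RefSeq orders them in its TAIR10.1 assembly, were then examined, 5 of 10 per gene having a probe set of their own. Beside AT5G38910, AT5G38900, a thioredoxin-superfamily gene and its nearest protein-coding neighbour on that side, behaved much like both genes. Its level was 8.03, 7.97 and 7.37 in colonized oxMYB72, against 7.15, 7.23 and 7.41 in untreated oxMYB72 (log2). In myb72-2 it was 8.53, 8.97 and 8.92 with WCS417, against 4.8, 5.51 and 4.93 without. In Col-0 it was 8.51, 8.89 and 8.63 with WCS417, against 5.11, 5.11 and 5.14 without. The oxMYB72 groups overlapped, and those of the other genotypes were far apart.

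AT5G38900 rose with WCS417 by 3.73 ± 0.18 in myb72-2 (adjusted p = 2.73e-12) and by 3.56 ± 0.18 in Col-0 (adjusted p = 6.15e-12; log2 ± SE, limma with Benjamini-Hochberg adjustment over all probe sets, higher on 3 of 3 arrays in each). In oxMYB72 it rose by 0.53 ± 0.18 (limma adjusted p = 0.039). That last call was lost under median centring (0.48, adjusted p = 0.0596) and without any of 4 of the 6 oxMYB72 arrays, namely untreated replicates 1 and 2 (0.47 and 0.51) and colonized replicates 1 and 2 (0.41 and 0.44), with adjusted p between 0.109 and 0.173. The WCS417 effect was smaller in oxMYB72 than in myb72-2 by -3.2 ± 0.25 (limma adjusted p = 3.31e-08) and than in Col-0 by -3.03 ± 0.25 (limma adjusted p = 7.91e-08).

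Without bacteria AT5G38900 was higher in oxMYB72 than in myb72-2 by 2.19 ± 0.18 (limma adjusted p = 1.6e-08) and than in Col-0 by 2.14 ± 0.18 (limma adjusted p = 2.03e-08). With WCS417 it was lower than in myb72-2 by -1.02 ± 0.18 (limma adjusted p = 0.000632) and than in Col-0 by -0.88 ± 0.18 (limma adjusted p = 0.00325). Over all probe sets 6.81% and 7.41% were called in the untreated comparisons, and 5.52% and 4.26% in the colonized ones. AT5G38900 thus stood higher than in the other genotypes without bacteria and lower with them, as AT5G38910 did. Its WCS417 effect in myb72-2 differed from that in Col-0 by 0.17 ± 0.25, and no difference between these genotypes was called. Such calls were rare over all probe sets, at 0.0176% for the WCS417 effect, 0.0396% for untreated and 0.127% for colonized roots. Within groups its deviations followed those of AT5G38910 at r = 0.917 and rho = 0.827, and at r = 0.841 without the 2 arrays named above.

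The other 4 measured neighbours of AT5G38910 did not share this pattern. AT5G38895 fell with WCS417 by 0.51 in oxMYB72, 0.51 in myb72-2 and 0.64 in Col-0 (limma adjusted p = 0.00945, 0.00842 and 0.00192). The oxMYB72 call was lost without untreated or colonized replicate 1 (-0.45 and -0.43), and the myb72-2 call without untreated replicate 3 or colonized replicate 2 (-0.36 and -0.41). AT5G38890 rose in oxMYB72 by 0.34 ± 0.12 (limma adjusted p = 0.0449), a call lost without 4 of the 6 arrays (0.24 to 0.37), under median centring (0.29) and with only the arrays compared (adjusted p = 0.0849). Its effects in myb72-2 (0.32) and Col-0 (0.27) were not called. AT5G38950 and the germin-like AT5G38960 were called in no genotype, and their effects ranged from -0.0028 to 0.25. AT5G38950 stayed between 3.34 and 3.95 and AT5G38960 between 3.51 and 4.17 on all arrays, below all array medians. AT5G38930 and AT5G38940, germin-like genes lying between them and AT5G38910, were not analysed here.

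In all, 2 higher and 1 lower of the 5 measured neighbours were called in oxMYB72, and 1 higher and 1 lower in each of myb72-2 and Col-0. Over all probe sets limma called 19.3% in oxMYB72 (10.2% higher, 9.09% lower), 21.4% in myb72-2 (8.52% higher, 12.9% lower) and 15.3% in Col-0 (6.38% higher, 8.96% lower).

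The measured neighbours of AT3G60270 showed no such partner. AT3G60300 fell with WCS417 by 0.86 in myb72-2 (limma adjusted p = 2.2e-05) and by 0.40 in Col-0 (limma adjusted p = 0.0264), and its effect in oxMYB72 was -0.23 ± 0.12. The Col-0 call was lost without Col-0 untreated replicates 2 (-0.38) or 3 (-0.38) or colonized replicates 1 (-0.34) or 2 (-0.34). AT3G60245, a ribosomal protein gene, rose in oxMYB72 by 0.5 ± 0.11 (limma adjusted p = 0.00325). Its effects in myb72-2 (0.23) and Col-0 (0.22) were not called. AT3G60260, AT3G60290 and AT3G60310 were not called in any genotype, with effects between -0.09 and 0.19. AT3G60290 lay between 2.91 and 3.34 and AT3G60310 between 4.61 and 5.26 on all arrays. Both were thus below all array medians, where a fall or a small change is hard to see. UCC3, a uclacyanin gene directly beside AT3G60270, was not analysed here. The count was thus 1 higher of 5 in oxMYB72 and 1 lower of 5 in each of myb72-2 and Col-0. Over all probe sets 10.2% were called higher in oxMYB72, and 12.9% and 8.96% lower in myb72-2 and Col-0.

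**Figure D3:**
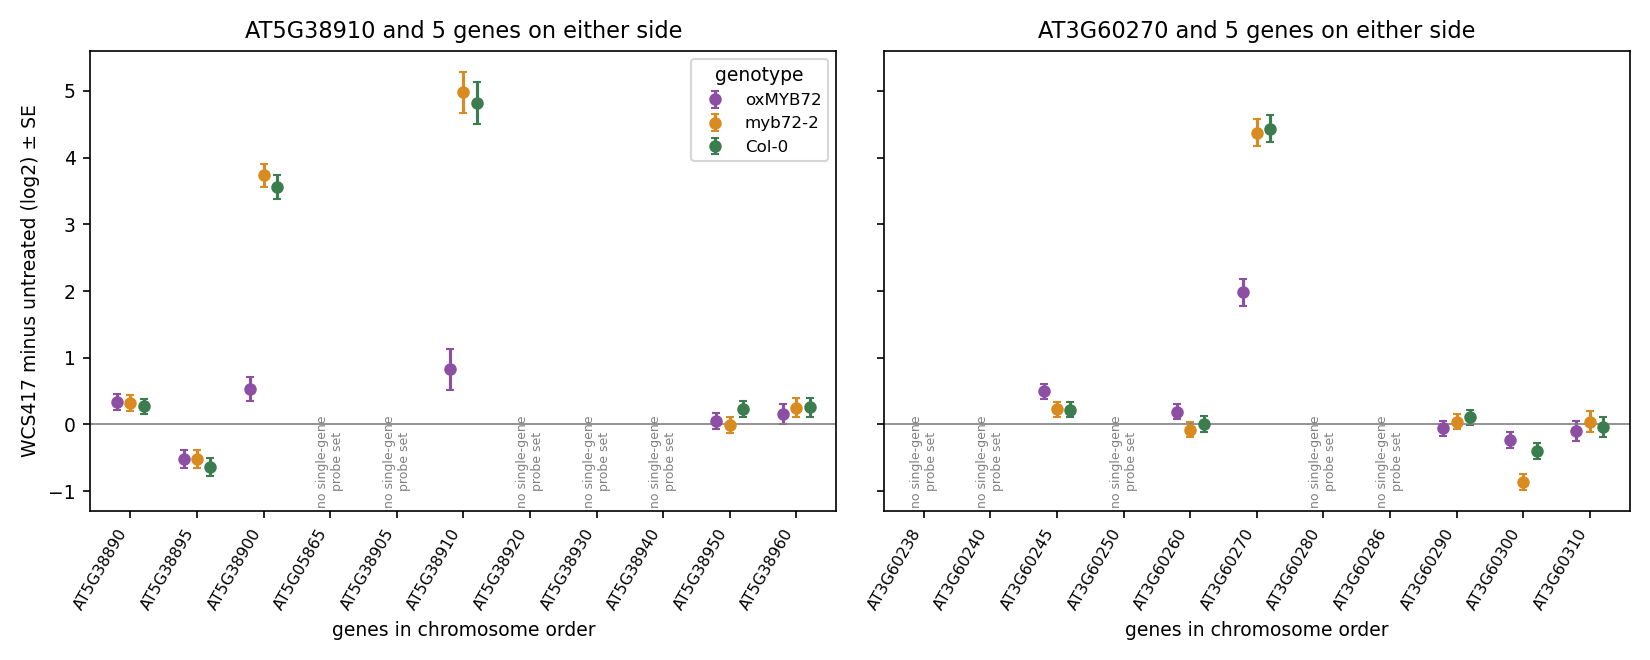
WCS417 minus untreated (log2, ± SE from limma) in oxMYB72, myb72-2 and Col-0 for each gene and the 5 genes on either side in chromosome order. Besides AT5G38910 and AT3G60270, AT5G38900 stands out at 3.73 in myb72-2 and 3.56 in Col-0, against 0.53 in oxMYB72.

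The other germin-like genes that were measured changed much less than AT5G38910 did in myb72-2 and Col-0. Of 31 further genes of the family listed, 11 had a probe set naming no other gene. In oxMYB72 2 were called higher and 1 lower, and in each of myb72-2 and Col-0 1 was called higher and none lower, to be read against the shares over all probe sets given above. In oxMYB72 4 of 11, in myb72-2 4 of 11 and in Col-0 1 of 11 had an unadjusted p under 0.05. Their median WCS417 effect was 0.04 in oxMYB72, 0.25 in myb72-2 and 0.09 in Col-0, against 0.03, -0.0019 and 0.00091 over all probe sets. The whole range of single effects over the 3 genotypes was -0.47 to 0.9, far short of AT5G38910 in myb72-2 and Col-0. Except for AT1G18980 and AT3G10080, the 11 genes reached at most 4.85 on any array, below all array medians. At such levels a fall or a small change is hard to see, so the counts and medians say little about the family.

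AT1G18980 was the germin-like gene called in every genotype, in opposite directions. Its level was 9.32, 9.21 and 9.17 in colonized oxMYB72, against 9.5, 9.75 and 9.84 in untreated oxMYB72 (log2). In myb72-2 it was 10.09, 10.21 and 10.41 with WCS417, against 9.48, 9.26 and 9.27 without. In Col-0 it was 10.12, 10.22 and 10.07 with WCS417, against 9.67, 9.21 and 9.37 without. No colonized array overlapped an untreated one of the same genotype.

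AT1G18980 fell by 0.47 in oxMYB72 (limma adjusted p = 0.00966, and 0.051 without oxMYB72 untreated replicate 3, at -0.40). It rose by 0.9 ± 0.12 in myb72-2 (limma adjusted p = 1.43e-05) and by 0.72 ± 0.12 in Col-0 (limma adjusted p = 0.000217). The effect in oxMYB72 differed from that in myb72-2 by -1.37 ± 0.17 (limma adjusted p = 2.91e-05) and from that in Col-0 by -1.19 ± 0.17 (limma adjusted p = 0.000198). Of all probe sets, 2.78% and 1.75% were called in these comparisons. With WCS417 it was lower in oxMYB72 than in myb72-2 by -1.01 ± 0.12 (limma adjusted p = 7.74e-06) and than in Col-0 by -0.91 ± 0.12 (limma adjusted p = 4.5e-05), whereas its untreated levels were not called apart (0.36 and 0.28). These untreated differences had the direction seen in AT5G38910 and AT3G60270, whose untreated levels stood apart by 1.55 to 2.17, but were smaller. Every untreated oxMYB72 array of AT1G18980 lay above every untreated myb72-2 array.

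AT3G10080 rose in oxMYB72 by 0.78 ± 0.16 (limma adjusted p = 0.00177), to 8.24 ± 0.17 against 7.46 ± 0.16 in untreated oxMYB72 (SD, n = 3). Its effects were 0.27 ± 0.16 in myb72-2 and 0.25 ± 0.16 in Col-0, and the difference between genotypes was not called (limma adjusted p = 0.355 against myb72-2 and 0.467 against Col-0). AT5G61750, at 3.80 to 4.39 on all arrays and so below all array medians, rose in oxMYB72 by 0.35 ± 0.12 (limma adjusted p = 0.0365). This call was lost after a second quantile normalization (0.29), after median centring (0.31), with a variance trend (adjusted p = 0.0559), and without untreated replicates 2 or 3 or any colonized replicate (0.30 to 0.38).

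Of 38 further phytocyanin genes listed 8 were measured. None was called in oxMYB72, where 1 had an unadjusted p under 0.05, 2 were called lower in myb72-2 and 1 lower in Col-0, with none called higher. Over all probe sets 12.9% were called lower in myb72-2 and 8.96% in Col-0, and with single arrays left out the count in myb72-2 was 0 to 2. The median WCS417 effect of the 8 was 0.05 in oxMYB72, -0.11 in myb72-2 and -0.08 in Col-0. AT4G01380 fell by 0.41 in myb72-2 (limma adjusted p = 0.0121) and by 0.54 in Col-0 (limma adjusted p = 0.00177), and its effect in oxMYB72 was 0.12 ± 0.11. The level of AT4G01380 was low, at 3.68 to 4.61 on all arrays and below all array medians. AT1G22480, AT2G31050 and AT2G26720 were also low and reached at most 4.78 on any array. The myb72-2 call of AT4G01380 was lost without untreated replicate 1 (-0.37) or colonized replicate 1 (-0.36). AT5G26330 fell by 0.42 in myb72-2 (limma adjusted p = 0.0406), a call lost without untreated replicates 1 or 2 or colonized replicates 1 or 2 (-0.43 to -0.34).

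For AT4G01380 the WCS417 effect was larger in oxMYB72 than in Col-0 by 0.66 ± 0.16 (limma adjusted p = 0.0324). The call was lost with a variance trend (adjusted p = 0.0556) and without any of 7 of the 12 arrays compared (0.56 to 0.68), namely Col-0 untreated replicates 2 and 3 and colonized replicate 2, and oxMYB72 untreated and colonized replicates 1 and 2. Without bacteria AT4G01380 was lower in oxMYB72 than in myb72-2 by -0.53 ± 0.11 (limma adjusted p = 0.00452) and than in Col-0 by -0.56 ± 0.11 (limma adjusted p = 0.00224), the opposite direction to AT3G60270. ARPN, the plantacyanin of Arabidopsis, stood at 9.99 ± 0.04 in colonized oxMYB72, 10.47 ± 0.11 in colonized myb72-2 and 10.30 ± 0.1 in colonized Col-0 (SD, n = 3), and WCS417 changed it in no genotype by a called amount.

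**Figure D4:**
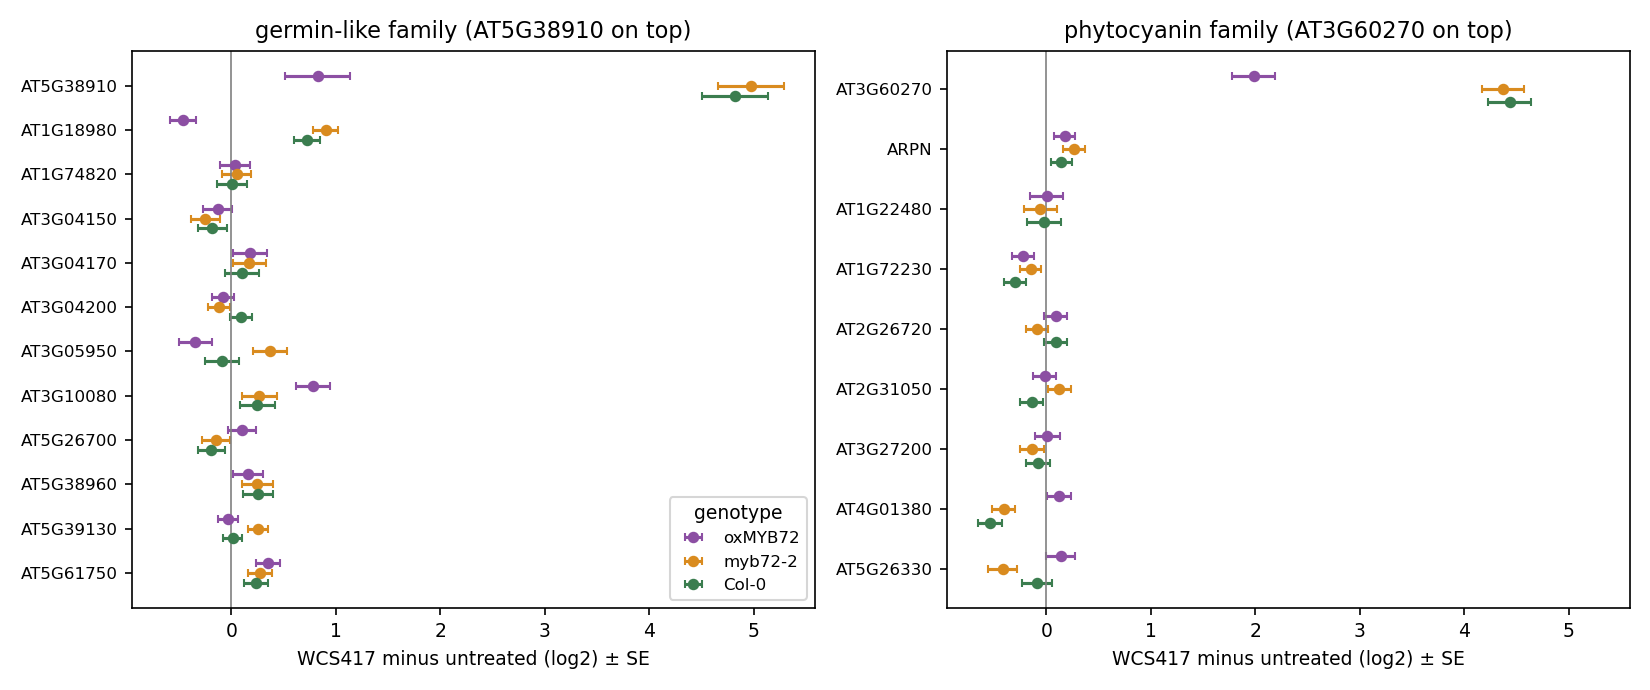
WCS417 minus untreated (log2, ± SE from limma) in oxMYB72, myb72-2 and Col-0 for the measured germin-like genes (left, AT5G38910 on top) and phytocyanin genes (right, AT3G60270 on top). Apart from the genes on top, effects lie between -0.54 and 0.9.

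Genes of copper handling and superoxide removal were examined because phytocyanins bind copper and germin-like proteins can act on superoxide. Of 23 listed 2 were measured, CCS, the copper chaperone of superoxide dismutase, and AT1G71200, a copper-responsive transcription factor. Neither was called for WCS417 in limma in any genotype, and 1, CCS in oxMYB72, had an unadjusted p under 0.05. CCS effects were -0.23 ± 0.1 in oxMYB72, -0.13 ± 0.1 in myb72-2 and 0.07 ± 0.1 in Col-0. Those of AT1G71200 were 0.02 ± 0.18, 0.35 ± 0.18 and 0.07 ± 0.18. With 2 genes measured, this says little about copper as a whole.

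Genes with the most similar pattern were sought by Pearson correlation over the 18 arrays, among 696 other single-gene probe sets whose group means spanned at least 1 on the log2 scale. The arrays fall into separate groups, so the coefficient is a measure of likeness and no test. Nearest to AT5G38910 were CHI, a chitinase family gene (r = 0.99), AT1G26390, a berberine bridge enzyme-like gene (0.972), AT2G18690 (0.965), AT2G04400, an indole-3-glycerol phosphate synthase of tryptophan synthesis (0.962), and AT3G18250 (0.961). AT5G38900 came sixth (0.958) and AT3G60270 at number 20 (0.938). Nearest to AT3G60270 were AT5G38900 (0.973), AT1G49000 (0.972), AT3G12900, the scopoletin 8-hydroxylase of coumarin synthesis (0.965), AT2G04400 (0.959) and CHI (0.959), and AT5G38910 came at number 9. Thus 2 genes, CHI and AT2G04400, were among the 5 nearest of both.

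The levels of these genes in oxMYB72 showed where the patterns parted. CHI averaged 8.35 ± 0.36 in colonized oxMYB72 and 7.4 ± 0.02 in untreated oxMYB72, and in Col-0 9.54 ± 0.09 with WCS417 and 6.45 ± 0.08 without (log2, SD, n = 3). Like AT5G38910, it stayed below its colonized Col-0 level in oxMYB72. AT3G12900 averaged 10.11 ± 0.16 in colonized and 6.43 ± 0.22 in untreated oxMYB72, against 10.58 ± 0.14 and 5.17 ± 0.47 in Col-0. Its colonized oxMYB72 mean came near the Col-0 mean, as for AT3G60270, but its arrays (9.93 to 10.22) lay below those of Col-0 (10.47 to 10.74). In colonized myb72-2 AT3G12900 averaged 9.98 ± 0.26, below its colonized oxMYB72 mean, unlike AT3G60270. AT2G18690 averaged 9.83 ± 0.37 in colonized and 9.81 ± 0.11 in untreated oxMYB72, so that WCS417 made almost no difference there, and 10.90 ± 0.26 and 9.03 ± 0.03 in Col-0. AT3G18250 averaged 8.18 ± 0.19 in colonized and 8.4 ± 0.24 in untreated oxMYB72, and 9.68 ± 0.16 and 6.34 ± 0.3 in Col-0. AT1G26390 averaged 6.78 ± 0.57 in colonized and 4.52 ± 0.37 in untreated oxMYB72, and 10.07 ± 0.09 and 3.62 ± 0.36 in Col-0. Its untreated oxMYB72 mean was near that of untreated myb72-2, 4.36 ± 1.16, where replicate 2 stood at 5.7. AT2G04400 and AT1G49000 averaged 9.38 and 6.82 in untreated oxMYB72, against 8.64 and 6.32 in untreated Col-0.

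**Figure D5:**
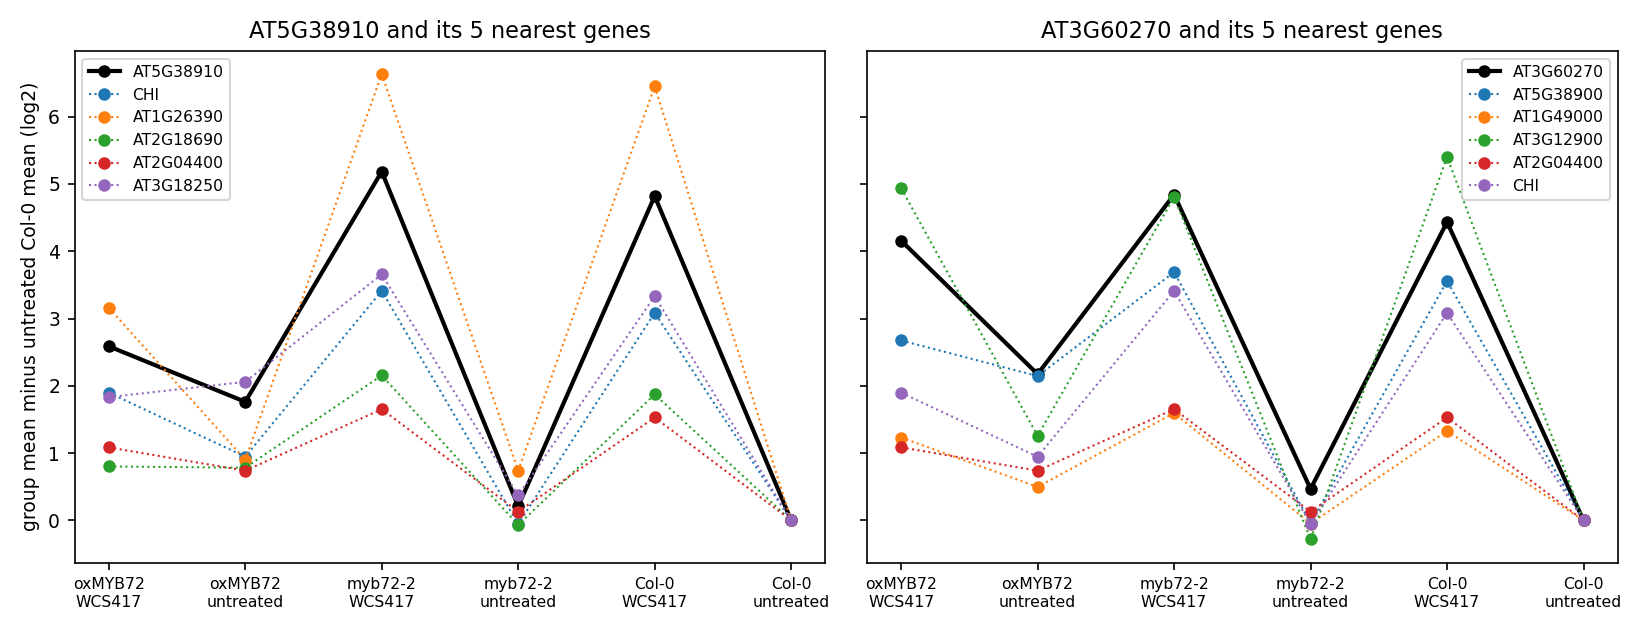
Group means, as differences from the untreated Col-0 mean (log2), of AT5G38910 and AT3G60270 (solid) and of the 5 genes nearest to each by correlation over 18 arrays (dotted). The horizontal axis gives the 6 groups, and lines only join the points of a gene. In untreated oxMYB72 AT5G38910 stands at 1.76 and AT3G60270 at 2.17.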

How the data were processed

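The deposited values are log2 expression values of 18 ATH1 arrays (values from 2.42 to 14.6) that the authors made with RMA, per the submitters' processing notes. No RMA version is stated, and the log2 scale was taken from the method and the range. Of 22810 probe sets, 64 controls were left out of tests. Gene names came from the platform annotation, through gene identifiers in a RefSeq table of TAIR10.1. 13513 probe sets named 1 gene. The level of MYB72 was not analysed here. Protein and promoter sequences were not used here.

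With limma 3.58.1 in R 4.3.3, group means were fitted to the 22746 probe sets over all arrays, and 12 comparisons were tested with moderated variances (two-sided; p adjusted by Benjamini-Hochberg across every probe set). A call is an adjusted p under 0.05. The code was first tested on simulated data.

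Named genes were the 2 genes, their measured neighbours (5 loci on either side), up to 4 called genes per list and the 5 most similar genes by correlation. The genes and lists were chosen with earlier results of these data known. Alternatives were a second quantile normalization, median centring, robust moderation along a variance trend, fits of the compared arrays alone, leaving out the dimmest 30% of probe sets, a block for the replicate number, and omission of single arrays. Deviations of same-numbered arrays correlated between -0.30 and 0.26 across groups, so no shared effect of the number was seen, and the samples were not treated as paired. Figures were drawn with matplotlib 3.10.9.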

Additional observations from a re-analysis of the deposited data

Results flagged for a closer look

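By limma's test of the difference itself, the WCS417 effect differed between oxMYB72 and another genotype in 1 of 5 measured neighbours of AT5G38910, none of 5 of AT3G60270, 1 of 11 germin-like genes, 1 of 8 phytocyanins and neither of the 2 copper genes. Over all probe sets 2.78% were called against myb72-2 and 1.75% against Col-0. For AT5G38900 the effect in oxMYB72 minus that in myb72-2 was -3.2 and minus that in Col-0 -3.03 (log2). For the germin-like AT1G18980 the differences were -1.37 and -1.19, with opposite directions of change in the 2 kinds of root. For the phytocyanin AT4G01380 the effect in oxMYB72 minus that in Col-0 was 0.66, and that call was lost without any of 7 of 12 arrays.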

How the results depend on the processing

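For AT5G38910 and AT3G60270, the differences moved by less than the SD of the groups compared under a second quantile normalization, median centring and the replicate block. With the replicate block, oxMYB72 minus Col-0 in the response to WCS417 was -3.99 for AT5G38910 and -2.45 for AT3G60270, as without it, and no list count changed. No shared effect of the replicate number was seen, with 7 of 18 arrays closest to their own number. This cannot tell whether same-numbered samples were handled together. Omitting single arrays gave -4.23 to -3.53 for the first of these differences, with -3.53 without colonized oxMYB72 replicate 3. Without that array the other AT5G38910 differences that use it shifted as much, to 1.28 for the WCS417 effect in oxMYB72, -3.69 for that effect minus the one in myb72-2, and -2.14 and -1.77 for colonized oxMYB72 minus myb72-2 and minus Col-0. The list counts were small and less stable. 2 germin-like genes were called in myb72-2 under median centring and with a variance trend, and 2 phytocyanins in Col-0 with a variance trend, against 1 each. Without single arrays, germin-like counts were 1 to 3 in oxMYB72, 1 to 2 in myb72-2 and 1 to 2 in Col-0. Phytocyanin counts were 0 to 2 in myb72-2 (0 without replicate 1 of either treatment, 1 without replicate 2) and 1 to 2 in Col-0. The copper list had 0 to 1 in myb72-2. The cause was not tested. Among calls of single named genes, 35 of 216 were lost when an array was left out, where fewer samples were fitted, and 7 of 180 under other settings, with no reversal.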

Other observations

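Some listed genes also differed between genotypes within a treatment, though none of the 11 germin-like genes was called between untreated oxMYB72 and either other genotype (limma; 1 had an unadjusted p under 0.05 against myb72-2 and 2 against Col-0). Among the 8 measured phytocyanins 2 were called lower in untreated oxMYB72 in each comparison, AT4G01380 as given above and ARPN. ARPN was lower in untreated oxMYB72 than in untreated myb72-2 by -0.40 ± 0.1 (limma adjusted p = 0.0183) and than in untreated Col-0 by -0.34 ± 0.1 (limma adjusted p = 0.0421), and lower in colonized oxMYB72 than in colonized myb72-2 by -0.49 ± 0.1 (limma adjusted p = 0.0039). CCS, of the copper list, was higher in untreated oxMYB72 than in untreated Col-0 by 0.45 ± 0.1 (limma adjusted p = 0.00679), and its difference from untreated myb72-2 was 0.23 ± 0.1. Of all probe sets, 6.81% were called between untreated oxMYB72 and myb72-2, 7.41% between untreated oxMYB72 and Col-0, and 5.52% between colonized oxMYB72 and myb72-2.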
